A study of Mus musculus with 59 samples.

Results

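Luminal epithelium of uteri that lack oestrogen receptor alpha in their epithelium is described here as it changed from D0.5, the day the mating plug was found, to D3.5. The members are the 13 knockout (KO) libraries scraped from luminal epithelium (LE), 6 at D3.5 (mice 31, 32, 34, 35, 36 and 37) and 7 at D0.5 (mice 21 to 27), chosen by tissue, genotype and day from 59 libraries in all. Each KO female, termed epiERα-/-, carried 1 floxed and 1 null allele of Esr1, the gene of this receptor, and the Wnt7aCre transgene (Esr1f/-Wnt7aCre/+), so both days share these alleles and differ in time after mating. Wnt7aCre acts in uterine epithelium and leaves Esr1 in stroma and muscle. The 13 control LE libraries, 4 at D3.5 and 9 at D0.5, came from Esr1f/- females without the transgene and are used here to compare day effects; they also entered the fit of the KO day test and so its filter and estimate of spread. All were virgin females of about 2 to 6 months paired with studs described as wild type, of C57BL/6 or Esr1f/f genotype, and the epithelium was scraped out after dispase digestion, an enzyme treatment that loosens the epithelium from the tissue under it. Each library came from a separate mouse, and no mouse gave LE on both days.

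As background, the uterus of a mated mouse passes from oestrogen action around ovulation and mating to progesterone action before the embryo implants. Oestrogen drives luminal cells to divide and to secrete mucins and antimicrobial proteins, and mating fluid draws neutrophils into the lumen; progesterone then stops division in the luminal epithelium and turns on signals to the stroma such as Indian hedgehog. Much of the oestrogen response of epithelium can be relayed through the receptor in stroma, while other parts need the receptor in the epithelial cell.

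Total counts per library, in units of 1e+06, lay between 14.2 and 19.4 in KO LE at D3.5 and between 16.6 and 37.9 at D0.5. Mitochondrial transcripts took 4.79% to 12.2% of counts at D3.5 and 4.41% to 11.4% at D0.5, and the 10 most abundant genes 6.84% to 14.1% and 9.30% to 15.2%. The first principal component of log2 CPM (counts per 1e+06 counts of the scaled library) over the 13 KO libraries held 59.9% of the variance and separated the days. The second held 11.7% and set KO D3.5 libraries 35, 36 and 37 on one side, at scores of 28.5 to 70.5, and libraries 31, 32 and 34 on the other, at −46.1 to −28.2. It also split the D0.5 libraries less widely, with 25, 26 and 27 at 14.6 to 18.5 and 21, 22, 23 and 24 at −22.3 to −15.9. KO D3.5 libraries 35, 36 and 37 also stood apart in makeup: mitochondrial transcripts took 4.79% to 5.98% of their counts and the 10 most abundant genes 6.84% to 7.94%, against 7.25% to 12.2% and 10.6% to 14.1% in libraries 31, 32 and 34. The part of these measures in the results was not tested. Results that these 3 libraries carry are therefore given with and without them. RNA was isolated as 1 batch for all LE libraries. The summed level of 14 general epithelial markers was 5313 to 9427 CPM at D3.5, against 6231 to 9483 CPM at D0.5, so the labelled tissue carried its markers on both days.

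Esr1 did not pass the test between days in KO LE, while the receptor gene for progesterone rose. Esr1 was at 52.1, 54.5 and 73.2 CPM in the lowest, median and highest KO D3.5 library, against 34.8, 41.5 and 62.9 CPM at D0.5, and the groups overlapped (log2 fold change 0.33 ± 0.20 (SE), adjusted p = 0.187, edgeR's quasi-likelihood test). On the authors' TPM (transcripts per 1e+06 transcripts) Esr1 did pass, at a log2 fold change of 0.71 (limma, adjusted p = 0.0144). The median over every gene was 0.42 on that scale. Control LE held 127 ± 25.8 CPM at D3.5 and 192 ± 57.6 CPM at D0.5 on average, so its day effect ran the other way, and the difference between the day effects was 0.93 ± 0.30 on the log2 scale (adjusted p = 0.0318, edgeR). The Esr1 reads that remain in KO LE were not assigned to cells here: bulk samples cannot tell a few unrecombined or stromal cells from low expression in many. Pgr, the progesterone receptor, was at 110.0, 137 and 174 CPM in KO D3.5 libraries, against 8.56, 12.9 and 23.9 CPM at D0.5, without overlap and 9.92-fold higher (3.31 ± 0.31, adjusted p = 4.06e-09, edgeR). Gper1, a G protein-coupled oestrogen receptor, rose 11.5-fold without overlap, and Pgrmc1, a membrane-associated progesterone receptor component, rose 1.54-fold. Nr3c2, the mineralocorticoid receptor, rose 2.13-fold, a call lost without libraries 35, 36 and 37 (log2 fold change 0.66 ± 0.32, adjusted p = 0.124, edgeR). Wnt7a, an epithelial Wnt ligand, was 5.49-fold higher at D3.5, at 162 ± 39.3 CPM against 29.6 ± 20.2 CPM (mean ± SD), again without overlap. Of 10 tested steroid receptor genes, 5 were higher, 1 was lower (the glucocorticoid receptor Nr3c1) and 4 did not pass. Over all 15601 genes tested, 6488 (41.6%) were called at an adjusted p under 0.05, 3333 (21.4%) higher and 3155 (20.2%) lower at D3.5. On log2(TPM + 1), limma gave 5799 higher and 1657 lower of 12815 genes. There the median log2 fold change over every gene was 0.42, against 0.04 in edgeR. Of the calls, 77.8% were thus higher on TPM and 51.4% in edgeR. Without libraries 35, 36 and 37, 15.1% of 15744 genes were called higher and 19% lower between days, and the day effect was higher in KO than in control LE for 6.26% and lower for 5.26%. Counts of list members are read against the shares of the same fit.

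The lists that moved furthest as a whole were neutrophil markers and chemokines downwards and progesterone-responsive genes upwards. Over all tested genes the median log2 fold change was 0.04, and 11.5% of genes were both called lower and without overlap, 9.78% called higher and without overlap.

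**Figure D1:**
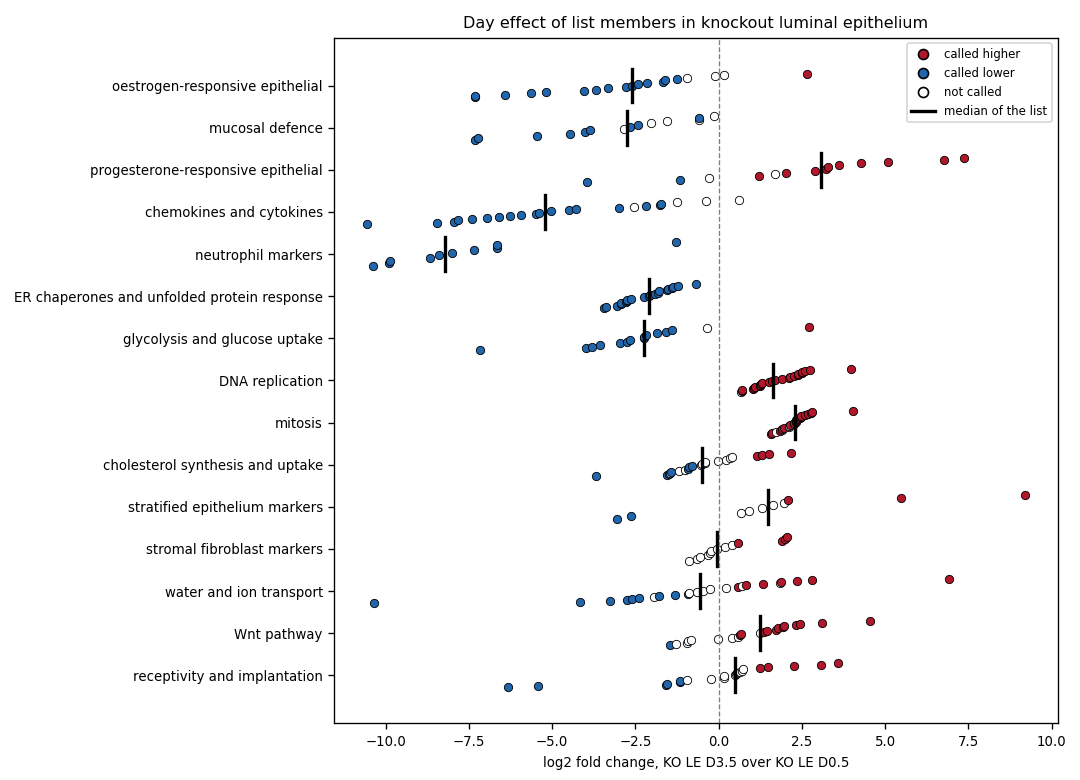
Day effect of each tested member of 15 gene lists in knockout luminal epithelium. The horizontal axis is the log2 fold change of KO LE D3.5 over KO LE D0.5, 1 point is 1 gene, red points were called higher, blue points lower and white points not at all (adjusted p under 0.05, edgeR), and the black bar is the median of the list. All 21 chaperone genes and all 10 neutrophil markers lie left of 0, and 23 of 24 DNA replication genes are red.

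**Figure D2:**
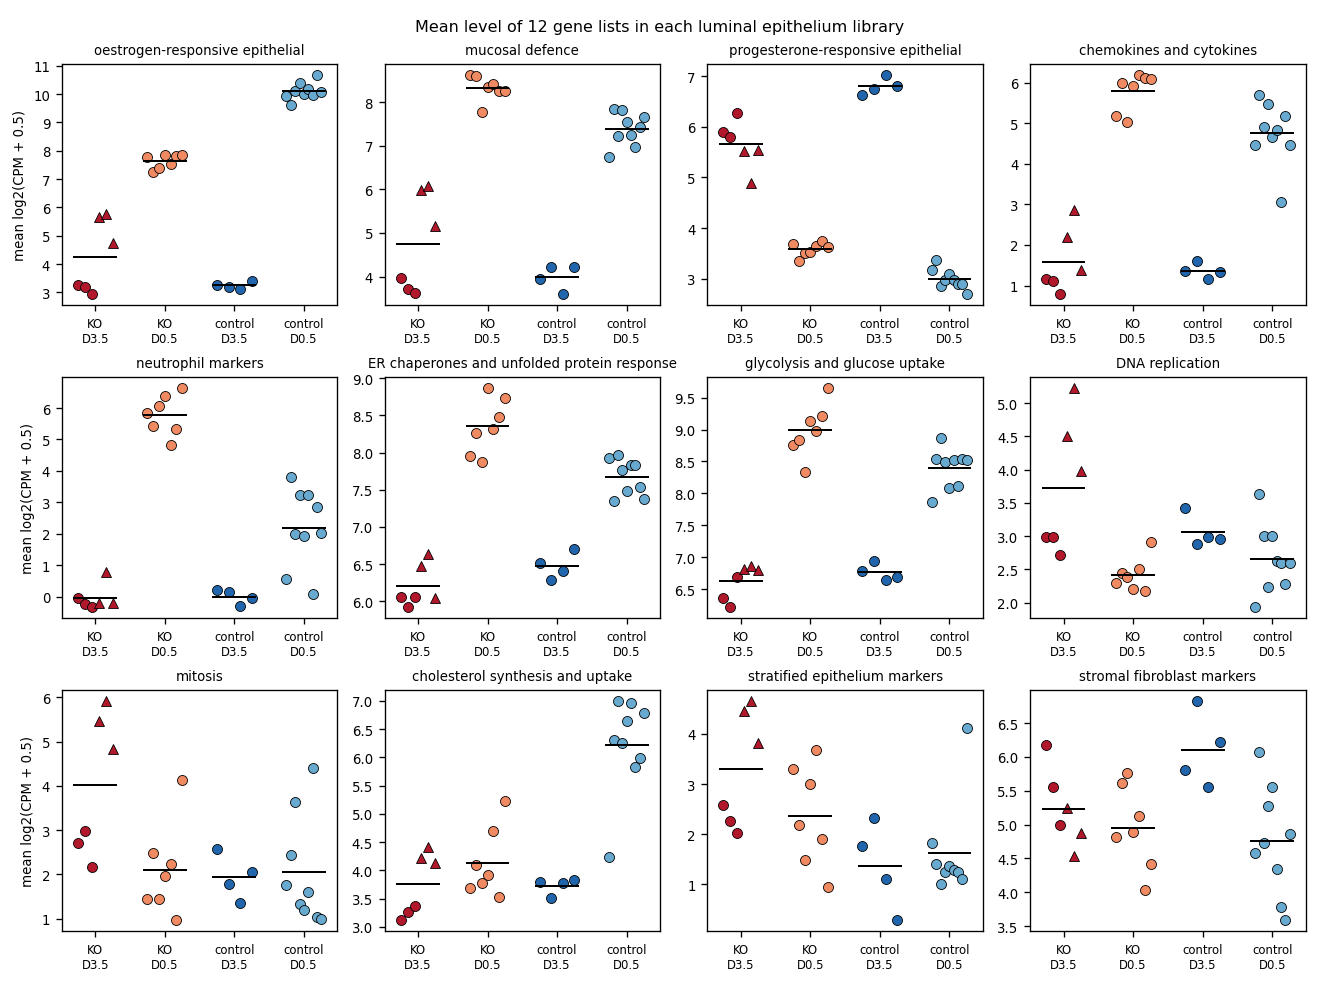
Mean log2(CPM + 0.5) of 12 gene lists in each luminal epithelium library, by genotype and day. Each point is 1 library, the bar is the group mean, and triangles are KO D3.5 libraries 35, 36 and 37. These 3 lie above the other 3 KO D3.5 libraries in the oestrogen-responsive, mucosal defence, chemokine, glycolysis, DNA replication, mitosis, cholesterol and stratified epithelium lists. In the progesterone-responsive list they lie below the other 3.

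The 12 genes named for the highest fold changes in KO LE at D3.5 included Ihh, described with its list, and the following. Ano2, a calcium-activated chloride channel, was at 2.18, 16.8 and 31.2 CPM in the lowest, median and highest KO D3.5 library and had no count in any of the 7 D0.5 libraries. Against 3 counts over that group it was at least 983-fold higher. Rims3, of a presynaptic protein family, held 254, 754 and 1417 CPM at D3.5, against 0.0697, 0.519 and 1.55 CPM at D0.5 (log2 fold change 9.91 ± 0.56, adjusted p = 1.24e-12, edgeR). Slc2a12, a glucose transporter, held 158, 449 and 893 CPM, against 1.31, 2.89 and 7.59 CPM, 143-fold higher. The days did not overlap in any of the 12 genes, because this was a condition for naming them. Atp2b2, a plasma membrane calcium pump, was 125-fold higher (258 ± 83.7 against 2.10 ± 1.31 CPM, mean ± SD), and Gldc, glycine decarboxylase, 180.4-fold (70.8 ± 27.8 against 0.324 ± 0.590 CPM). Sptlc3, a subunit of the enzyme that starts sphingolipid synthesis, averaged 30.0 ± 11.4 CPM at D3.5 and 0.111 ± 0.0939 CPM at D0.5. Cyp2a5, a cytochrome P450, averaged 16.3 ± 13.0 CPM at D3.5 and had 2 counts in all at D0.5. The same rule named Olah, a fatty acid chain-releasing enzyme, Acbd7, an acyl-CoA-binding protein, Grid2ip and the citrate transporter Slc13a5, with log2 fold changes of 7.50 to 7.82. The KO D3.5 libraries differed among themselves here. Slc13a5 was at 134, 81.2 and 101 CPM in libraries 31, 32 and 34 and at 2.90, 1.26 and 18.5 CPM in libraries 35, 36 and 37, while Acbd7 ran the other way, at 6.66, 5.92 and 6.57 against 32.7, 16.4 and 47.8 CPM.

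Progesterone-responsive genes rose in KO LE without the epithelial oestrogen receptor. Of 14 tested members of this list 10 were higher and 2 lower at D3.5 (21.4% and 20.2% of all genes), with a median log2 fold change of 3.07, and 11 were higher without libraries 35, 36 and 37. Ihh, Indian hedgehog, the signal from epithelium to stroma, was at 44.7, 67.1 and 131 CPM at D3.5, against 0.0844, 0.418 and 1.00 CPM at D0.5, 165-fold higher (7.36 ± 0.46, adjusted p = 4.65e-12, edgeR). Every KO D3.5 library lay above every D0.5 library, a condition for its place among the 12 genes of highest fold change. Lrp2, the endocytic receptor megalin, averaged 2077 ± 984 CPM, against 61.1 ± 25.0 CPM, 34.0-fold higher (5.09 ± 0.51). Library 36 held the lowest level of both genes at D3.5. Areg, the epidermal growth factor receptor ligand amphiregulin, averaged 16.9 ± 6.76 CPM at D3.5 and 0.151 ± 0.143 CPM at D0.5. Gata2 and Sox17, transcription factors of uterine epithelium, were 7.51-fold and 9.80-fold higher without overlap. Hdc, which makes histamine, rose 2.30-fold with overlap. The members that fell were Acod1, which makes itaconate and is known as a progesterone-induced gene of uterine epithelium, at 308 ± 91.4 CPM against 686 ± 307 CPM (log2 fold change −1.16 ± 0.39, adjusted p = 0.0181, edgeR; 0.166 on log2(TPM + 1) with limma), and Fst, the activin-binding protein follistatin, at 0.800 ± 0.515 against 12.6 ± 11.1 CPM. In control LE, 12 of the 14 were higher and none was lower.

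The rise of several progesterone-responsive genes was smaller in KO than in control LE. The day effects differed for 7 of the 14, lower in KO for 6 and higher for Gata2 (6.99% and 9.52% of all genes). Ihh reached 344 ± 90.8 CPM on average in control LE at D3.5, against 0.138 ± 0.0980 CPM at D0.5, and the difference of the day effects was −4.00 ± 0.65 on the log2 scale (adjusted p = 0.000108, edgeR). For Lrp2 the difference was −2.94 ± 0.65 (adjusted p = 0.00236, edgeR), and for Hdc −2.33 ± 0.46 (adjusted p = 0.000806, edgeR). Acod1 rose in control LE, to 464 ± 86.5 CPM at D3.5 against 86.5 ± 63.3 CPM at D0.5, and fell in KO LE, with a difference of −3.58 ± 0.56 (adjusted p = 6.34e-05, edgeR). Pgr itself did not pass, with a difference of −0.13 ± 0.43 (adjusted p = 0.886, edgeR). Without libraries 35, 36 and 37, 5 members were lower and 1 higher in KO.

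Genes of receptivity and implantation moved both ways. Of 21 tested, 6 were higher and 6 lower (21.4% and 20.2% of all genes). On log2(TPM + 1), where 77.8% of all calls were higher, 9 were higher and 4 lower. Msx1, a homeobox factor of the prereceptive epithelium, rose 12.1-fold to 903 ± 235 CPM at D3.5, against 74.5 ± 33.8 CPM at D0.5, and Lpar3, a lysophosphatidic acid receptor, rose 4.80-fold, both without overlap. Lif, leukaemia inhibitory factor, was at 1.02, 3.35 and 10.3 CPM at D3.5, against 32.2, 123 and 1167 CPM at D0.5 (−6.31 ± 0.87, adjusted p = 1.58e-06, edgeR), and its D0.5 libraries were widely spread. Spp1, osteopontin, fell to 10.9 ± 13.7 CPM, against 466 ± 279 CPM.

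Oestrogen-responsive secretory genes were high in KO LE at D0.5 and fell by D3.5. Of 19 tested members 15 were lower and 1 higher at D3.5 (20.2% and 21.4% of all genes). The median log2 fold change was −2.60, and 12 members were lower without overlap (11.5% of all genes). Muc4, a membrane mucin, was at 58.5, 86.5 and 142 CPM at D3.5, against 3244, 4123 and 8170.4 CPM at D0.5 (−5.64 ± 0.41, adjusted p = 6.06e-11, edgeR). Muc1, another membrane mucin, fell 6.94-fold and Prap1, a secreted proline-rich acidic protein, 36.1-fold, both without overlap. Sprr2e averaged 0.297 ± 0.249 CPM at D3.5 and 25.9 ± 16.6 CPM at D0.5, though reads of the near-identical Sprr2 genes may be split among them. Ltf, lactotransferrin, fell unevenly. It was at 153, 62.5 and 137 CPM in KO D3.5 libraries 31, 32 and 34, at 3728, 5714 and 1887 CPM in libraries 35, 36 and 37, and at 6475, 10293 and 15636 CPM in the lowest, median and highest D0.5 library. Its log2 fold change was −2.42 ± 0.70 (adjusted p = 0.00634, edgeR) with all libraries and −6.51 ± 0.57 without the 3. Alpl, tissue-nonspecific alkaline phosphatase, was the member called higher, at 1.07, 4.26 and 17.2 CPM against 0.572, 0.904 and 1.66 CPM, and this call was lost without the 3 libraries (log2 fold change 0.65 ± 0.42, adjusted p = 0.247, edgeR). Without them, 15 of 19 were lower, none was higher, and the median was −4.95.

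Mucosal defence genes fell as well. Of 14 tested members 9 were lower and none was higher (20.2% and 21.4% of all genes), and 11 were lower without the 3 libraries (19% of all genes). The median log2 fold change was −2.75 with them and −5.10 without. Cfb, complement factor B, was at 129, 251 and 1092 CPM at D3.5, against 10839, 20222 and 22934 CPM at D0.5, 43.9-fold lower. Pigr, which carries antibodies across epithelium, fell 14.6-fold and Muc20, a membrane mucin, 16.3-fold. Lcn2, the iron-trapping protein lipocalin, was at 7.42, 4.30 and 3.46 CPM in libraries 31, 32 and 34 and at 152, 355 and 22.8 CPM in libraries 35, 36 and 37, against 6219.9, 15382 and 17896 CPM at D0.5. All 6 D3.5 libraries lay below the D0.5 range. Dmbt1, a mucosal scavenger protein, averaged 11.3 ± 15.5 against 1691 ± 889 CPM.

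Compared with control LE, oestrogen-responsive genes fell less in KO LE. Their mean log2(CPM + 0.5) at D0.5 was 7.25 to 7.84 in KO LE and 9.63 to 10.67 in control LE. In control LE 18 of 19 members fell, with a median log2 fold change of −7.68, and the day effect was higher in KO for 15 of the 19 and lower for none (9.52% and 6.99% of all genes). Muc4 differed by 2.99 ± 0.51 (adjusted p = 0.00017, edgeR) and Ltf by 5.74 ± 1.10 (adjusted p = 0.000575, edgeR). For Alpl, control LE held 9.34 ± 4.10 CPM at D3.5 and 1088 ± 402 CPM at D0.5, and the difference was 9.52 ± 0.87 (adjusted p = 4.07e-08, edgeR). Without libraries 35, 36 and 37 the day effect was higher in KO for 11 members and lower for 1, Lcn2 (difference −2.21 ± 0.56, adjusted p = 0.0109, edgeR). Muc4, Ltf and Alpl then differed by 2.66 ± 0.54, 1.68 ± 0.52 and 7.55 ± 0.58 (adjusted p = 0.00214, 0.0355 and 2.72e-08, edgeR).

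**Figure D3:**
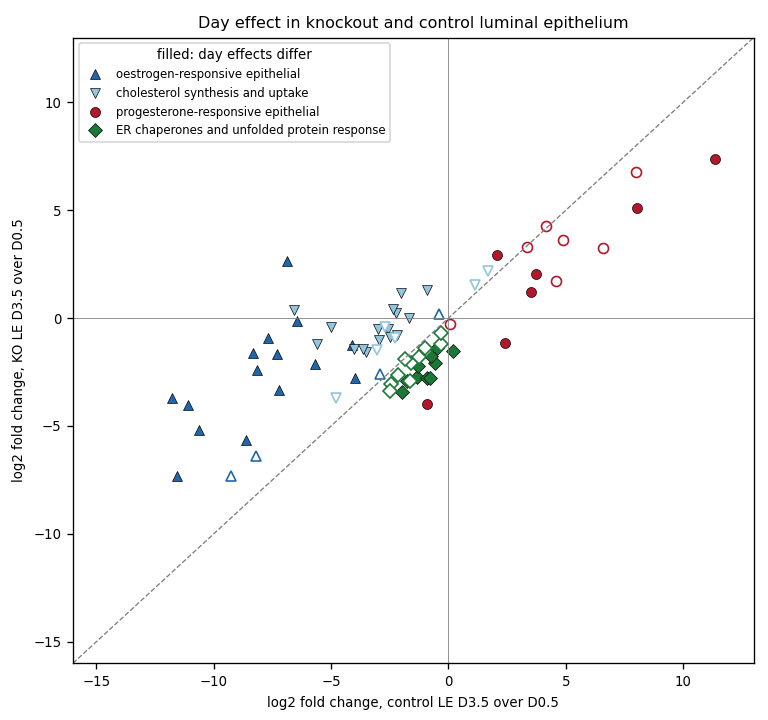
Day effect in KO luminal epithelium (vertical axis, log2 fold change D3.5 over D0.5) against the day effect in control luminal epithelium (horizontal axis, same unit) for the tested members of 4 gene lists. Filled points are genes whose day effects differed (adjusted p under 0.05, edgeR), the dashed line marks equal effects, and 15 of 19 oestrogen-responsive and 16 of 22 cholesterol genes are filled above it.

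Neutrophil markers and chemokines had the lowest median fold changes of the 34 lists. Of 22 tested chemokine and cytokine genes 18 were lower and none higher (20.2% and 21.4% of all genes), with a median log2 fold change of −5.22. Of the 22, 17 were lower without overlap (11.5% of all genes). Of 10 tested neutrophil markers all 10 were lower, 9 without overlap, with a median of −8.21 (−7.68 with Ngp, which had no count at D3.5, set to its bound against 3 counts). Mpo, Elane and Camp, also on this list, did not pass the count filter. Members with few or no counts at D3.5, such as Ngp and Mmp8, passed it only through other LE groups. A rise at D3.5 was therefore not open to them. The numbers called lower in the 2 lists were 18 and 10 without libraries 35, 36 and 37 as well. Cxcl2, a chemokine that attracts neutrophils, was at 0, 0.177 and 2.24 CPM in the lowest, median and highest KO D3.5 library, against 226, 609 and 1776 CPM at D0.5 (−10.55 ± 1.08, adjusted p = 1.51e-08, edgeR). Cxcl1, its close relative, was at 0.153, 0.393 and 7.21 CPM against 66.9, 412 and 1039.9 CPM, and Cxcl5 averaged 25.9 ± 51.9 CPM at D3.5 and 4372 ± 1620.0 CPM at D0.5. In all 3 the days did not overlap, and library 36 was the highest at D3.5. For Cxcl2, named among the lowest fold changes, non-overlap was a condition of the naming. Csf3, a growth factor for granulocytes, fell 77.1-fold, Il1a, interleukin 1 alpha, 41.7-fold and Il1rn, the interleukin 1 receptor antagonist, 61.5-fold.

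The promoters of Cxcl1 and Cxcl2 are shown because these genes fell together; they hold kappaB-like letters, GGG, any 2 bases and TTTCC, searched on both strands and printed in capitals. The 250 bases before each start are from RefSeq on build GRCm38.p6, 5′ to 3′ on the gene's strand, Cxcl1 at chr5:90890995-90891244 (plus strand) and Cxcl2 at chr5:90903649-90903898 (plus strand). Of 18 such windows found for 15 of the 23 genes of the list, 7 (38.9%) held these letters, against 225 of 15510 windows (1.45%) of the tested genes.
Cxcl1: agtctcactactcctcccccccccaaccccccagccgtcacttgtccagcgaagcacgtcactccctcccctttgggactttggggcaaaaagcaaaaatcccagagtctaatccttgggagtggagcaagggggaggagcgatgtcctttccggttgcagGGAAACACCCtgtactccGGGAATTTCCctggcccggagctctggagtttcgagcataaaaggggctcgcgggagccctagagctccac
Cxcl2: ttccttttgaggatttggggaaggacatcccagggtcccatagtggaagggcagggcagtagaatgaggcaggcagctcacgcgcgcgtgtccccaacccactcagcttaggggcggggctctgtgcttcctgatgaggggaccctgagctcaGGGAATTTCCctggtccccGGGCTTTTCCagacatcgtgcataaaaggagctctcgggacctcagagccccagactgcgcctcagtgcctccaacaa
These matches are a description of the letters and not of binding.

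S100a8 and S100a9, the calprotectin subunits of neutrophils, were at 0, 0.0732 and 1.58 and 0.0394, 0.347 and 3.82 CPM at D3.5, against 231, 406 and 931 and 435, 703 and 1565 CPM at D0.5. Retnlg, a resistin-like protein, fell 162-fold and the chemokine receptor Cxcr2 101-fold, while Fpr1, the formyl peptide receptor, and the collagenase Mmp8 had 2 counts each at D3.5, against means of 26.6 ± 11.6 and 19.0 ± 10.3 CPM at D0.5. The other genes with the lowest fold changes were the chitinase-like Chil1, at 2.09 ± 4.49 CPM against 2676 ± 959.9 CPM, and Slfn4, of the Schlafen family, at 0.965 ± 1.01 against 886 ± 394 CPM. Mrgpra2b, Stfa2l1 and Wfdc21 had no count at D3.5 and were at least 973-fold, 724-fold and 521-fold lower against 3 counts over that group. Cstdc4, a stefin-like protein, had 1 count at D3.5, against 27.9 ± 10.6 CPM at D0.5. Ptprc, the leukocyte surface protein CD45, was at 6.16, 9.32 and 15.1 CPM at D3.5, against 41.7, 89.5 and 102 CPM at D0.5, 7.84-fold lower without overlap. Fewer neutrophils and less RNA per cell cannot be told apart in these bulk samples. In control LE 7 of the 10 neutrophil markers fell, and the day effect was lower in KO for 4 of them and for Ptprc (difference −3.55 ± 0.74, adjusted p = 0.00137, edgeR).

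Markers of other cell types moved in both directions, where 21.4% of all genes were higher and 20.2% lower. Of 10 macrophage markers 3 were higher, the complement genes C1qa, C1qb and C1qc, and 2 lower, Cd14 and Cd68. C1qa averaged 28.8 ± 23.3 CPM at D3.5 and 9.22 ± 4.83 CPM at D0.5, with no call without the 3 libraries (adjusted p = 0.659, edgeR), where no macrophage marker was higher (0 at an unadjusted p under 0.05). Cd14, a receptor for bacterial lipopolysaccharide, fell 11.2-fold and Cd68, a lysosomal protein, by a log2 fold change of −2.63 ± 0.29, both without overlap. Without library 35 alone, 1 macrophage marker was higher. Of 13 stromal markers 4 were higher and none lower, with summed levels of 914 to 3367 CPM at D3.5 against 999 to 4822 CPM at D0.5. None of 8 smooth muscle and none of 8 endothelial markers was called, with summed levels of 54.5 to 169.8 against 42.7 to 143 CPM and 15.8 to 327 against 17.4 to 106 CPM. At an unadjusted p under 0.05 in edgeR 1 smooth muscle marker was higher, and 3 endothelial markers were higher and 1 lower; DESeq2 called 1 smooth muscle marker higher and 1 endothelial marker each way. Without libraries 35, 36 and 37, 5 of 8 endothelial and 5 of 5 erythroid markers were higher; with all libraries 1 of 5 erythroid markers was, and 5 without library 37 alone. Their part in the day effect was not tested. Of 14 general epithelial markers 3 were higher and 4 lower. The claudin Cldn7 fell 3.82-fold, Prom1 4.26-fold and the epithelial transcription factor Elf3 3.41-fold, while the claudin Cldn3 rose 2.83-fold.

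All 21 genes of endoplasmic reticulum chaperones and the unfolded protein response were lower in KO LE at D3.5. The median log2 fold change was −2.08, 18 of the 21 did not overlap between days (11.5% of all genes), and 21 of 21 were lower without libraries 35, 36 and 37 and 20 of 21 on log2(TPM + 1) with limma. Hspa5, the chaperone BiP, was at 223, 316 and 570.1 CPM in the lowest, median and highest KO D3.5 library, against 1551, 2459 and 3742 CPM at D0.5, 6.72-fold lower (−2.75 ± 0.26, adjusted p = 4.32e-09, edgeR). Creld2, a chaperone-like protein, was at 19.4, 29.8 and 43.4 CPM against 123, 210.5 and 365 CPM, and Pdia6, a disulphide isomerase, at 110.4, 132 and 230.1 CPM against 566, 934 and 1341 CPM. No D3.5 library reached the lowest D0.5 library in these 3 genes. Herpud1, of the degradation machinery, fell 10.5-fold, Manf, a secreted stress protein, 7.62-fold, Calr, calreticulin, 4.24-fold and Hsp90b1, the chaperone GRP94, 2.92-fold. In control LE 15 of the 21 were lower and none higher, with a median of −1.25, and the day effect was lower in KO for 10 and higher for none. Hspa5 differed by −1.40 ± 0.35 (adjusted p = 0.00614, edgeR) and Creld2 by −1.86 ± 0.30 (adjusted p = 0.000114, edgeR). Without libraries 35, 36 and 37 it was lower in KO for 9.

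The promoters of 5 of these genes are shown because they share the endoplasmic reticulum stress element, a CCAAT box 9 bases before CCACG (searched on both strands), through which unfolded-protein signals are known to act. These 250 bases before the start were read the same way as for the chemokines, Hspa5 at chr2:34771840-34772089 (plus strand), Hsp90b1 at chr10:86705445-86705694 (minus strand), Calr at chr8:84846932-84847181 (minus strand), Pdia6 at chr12:17266339-17266588 (plus strand) and Creld2 at chr15:88819396-88819645 (plus strand). Capitals mark the element, which lies 65 bases before the start in Hspa5 and 98 bases before it in Pdia6. It was found in 7 of 19 windows of the list (36.8%), for Calr, Canx, Creld2, Dnajc3, Hsp90b1, Hspa5 and Pdia6, against 18 of 15510 windows (0.116%) of the tested genes.
Hspa5: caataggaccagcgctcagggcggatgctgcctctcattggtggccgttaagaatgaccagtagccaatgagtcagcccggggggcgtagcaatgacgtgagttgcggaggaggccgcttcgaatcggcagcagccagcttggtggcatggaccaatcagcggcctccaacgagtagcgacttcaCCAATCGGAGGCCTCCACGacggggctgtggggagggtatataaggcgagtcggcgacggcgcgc
Hsp90b1: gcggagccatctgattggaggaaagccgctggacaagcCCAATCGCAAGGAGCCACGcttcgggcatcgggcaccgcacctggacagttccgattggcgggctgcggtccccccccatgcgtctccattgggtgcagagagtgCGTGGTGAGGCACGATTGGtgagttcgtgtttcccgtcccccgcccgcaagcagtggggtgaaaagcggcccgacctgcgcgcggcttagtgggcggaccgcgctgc
Calr: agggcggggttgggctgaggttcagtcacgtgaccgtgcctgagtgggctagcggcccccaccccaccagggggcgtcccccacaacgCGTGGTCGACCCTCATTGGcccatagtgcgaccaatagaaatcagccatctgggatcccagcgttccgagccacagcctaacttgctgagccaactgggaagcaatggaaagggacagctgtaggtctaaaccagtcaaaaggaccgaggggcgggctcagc
Pdia6: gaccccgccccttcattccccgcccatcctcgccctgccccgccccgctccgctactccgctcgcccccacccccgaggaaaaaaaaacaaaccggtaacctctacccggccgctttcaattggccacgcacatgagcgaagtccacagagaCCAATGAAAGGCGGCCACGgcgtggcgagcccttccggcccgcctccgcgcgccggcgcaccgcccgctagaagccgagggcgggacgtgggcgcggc
Creld2: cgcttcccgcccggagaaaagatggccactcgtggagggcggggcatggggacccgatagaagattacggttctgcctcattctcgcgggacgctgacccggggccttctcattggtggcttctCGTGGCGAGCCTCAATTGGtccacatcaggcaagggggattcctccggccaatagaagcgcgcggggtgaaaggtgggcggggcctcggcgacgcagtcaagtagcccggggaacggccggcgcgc
A match describes the letters only. Of 2 further motifs searched in the same way, the progesterone response element (GNACA, any 3 bases, TGTNC) was found in 0 of 12 windows of the progesterone-responsive list (0.322% of all windows) and the oestrogen response element (GGTCA, any 3 bases, TGACC) in 0 of 19 windows of the oestrogen-responsive list (0.0129%). This says only that these letters are not in these windows. All 5 genes printed were lower at D3.5, by log2 fold changes of −1.55 to −2.78.

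Glycolysis genes fell as well. Of 15 tested genes 13 were lower (20.2% of all genes), all 13 without overlap (11.5% of all genes). Slc2a3, a high-affinity glucose transporter, was higher. The median log2 fold change was −2.25, and the counts were the same without libraries 35, 36 and 37. Slc16a3, the lactate exporter, was at 0.865, 2.24 and 3.99 CPM at D3.5, against 182, 333 and 638 CPM at D0.5, 145-fold lower (−7.18 ± 0.53, adjusted p = 9.68e-11, edgeR). Hk2, a hexokinase, fell 14.0-fold, Pgk1, phosphoglycerate kinase, 7.85-fold and Aldoa, aldolase, 6.28-fold. Slc2a3 was at 80.3, 208 and 359.9 CPM against 9.04, 34.5 and 58.7 CPM, 6.55-fold higher, and rose further in control LE, to 889.8 ± 483 CPM at D3.5 against 3.67 ± 3.19 CPM at D0.5 (difference −5.20 ± 0.83, adjusted p = 8.44e-05, edgeR). Control LE also had 13 lower and 1 higher, but the day effect was lower in KO for 4 of the 15, Slc2a3, Hk2, Pfkl and Pfkp, and higher for none (5 lower and 0 higher at an unadjusted p under 0.05, edgeR; 2 lower without the 3 libraries). Nuclear genes of the respiratory chain moved less, with 6 of 17 lower and none higher. On log2(TPM + 1), where 77.8% of all calls were higher, 1 was lower and 3 were higher. In edgeR the count was 10 of 17 lower, with a median log2 fold change of −0.68 against −0.38, without libraries 35, 36 and 37. Ndufa4, a respiratory chain subunit, fell 2.35-fold. Of 11 genes of histamine, arginine and polyamine metabolism 7 were lower, among them the arginase Arg1 (14.4-fold) and spermine oxidase Smox (3.87-fold), and Hdc was higher.

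Genes of DNA replication and mitosis were higher in KO LE at D3.5, but in an uneven way that libraries 35, 36 and 37 carried. Of 24 replication genes 23 were higher and none lower (21.4% and 20.2% of all genes), with a median log2 fold change of 1.64. Of 24 mitosis genes 19 were higher and none lower, with a median of 2.29. Without these 3 libraries 6 replication genes and no mitosis gene were called higher in edgeR (15.1% of all genes). At an unadjusted p under 0.05, 1 mitosis gene was higher, and no other tool was run on these libraries. The medians were then 0.60 and 0.14. Mki67, the proliferation marker, was at 26.2, 42.7 and 8.55 CPM in KO D3.5 libraries 31, 32 and 34 and at 195, 248 and 145 CPM in libraries 35, 36 and 37, against 3.72, 15.3 and 65.8 CPM in the lowest, median and highest D0.5 library. The first 3 libraries lay within the D0.5 range and the other 3 above it. Cdk1, the kinase that starts mitosis, was at 4.92, 4.65 and 3.16 CPM and at 30.5, 53.9 and 19.9 CPM in the same libraries, against 1.87, 3.32 and 14.2 CPM at D0.5. Ccnb2, a cyclin of mitosis, was at 3.86, 5.17 and 3.82 CPM and at 42.2, 59.8 and 30.9 CPM, against 1.68, 3.46 and 15.5 CPM.

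Single libraries decided how many mitosis genes were called. Leaving out library 36 left 11 of 24 higher, and leaving out D0.5 library 27, the highest D0.5 library of the list, left all 24 higher. The kinesin Kif11 changed by 2.82 ± 0.71 on the log2 scale (adjusted p = 0.0023, edgeR) with all libraries and by 0.72 ± 0.74 without the 3 (adjusted p = 0.489). Kif23, of the cleavage furrow, changed by 1.86 ± 0.47 and by −0.16 ± 0.40, and Kif20a by 2.76 ± 0.71 and by 0.81 ± 0.74. Cdk1 and Ccnb2, whose calls were also lost without library 35 alone and without library 36 alone, changed sign without the 3, to −0.06 ± 0.84 and −0.20 ± 0.90. Among the replication genes, Prim1, the DNA primase subunit, was at 8.06, 6.03 and 8.65 CPM in libraries 31, 32 and 34 and at 18.9, 25.0 and 12.6 CPM in libraries 35, 36 and 37, all above the D0.5 range of 1.21 to 3.56 CPM. It was higher with all libraries and without the 3 (log2 fold changes 2.61 ± 0.37 and 1.78 ± 0.38, adjusted p = 2.57e-06 and 0.000817, edgeR). Rrm2, of ribonucleotide reductase, was likewise called in both (3.97 ± 0.66 and 2.00 ± 0.62). Pola1, a subunit of DNA polymerase alpha, rose 4.44-fold. Against control LE, where 5 replication genes rose and 2 fell and 1 mitosis gene rose and 1 fell, the day effect was higher in KO for 9 replication and 6 mitosis genes, among them Rrm2 (difference 3.49 ± 0.95, adjusted p = 0.012, edgeR) and Kif23 (3.30 ± 0.73, adjusted p = 0.00241, edgeR). Without the 3 libraries it was higher for no gene of either list in edgeR (3 replication genes and 1 mitosis gene at an unadjusted p under 0.05) and lower for 2 replication genes.

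**Figure D4:**
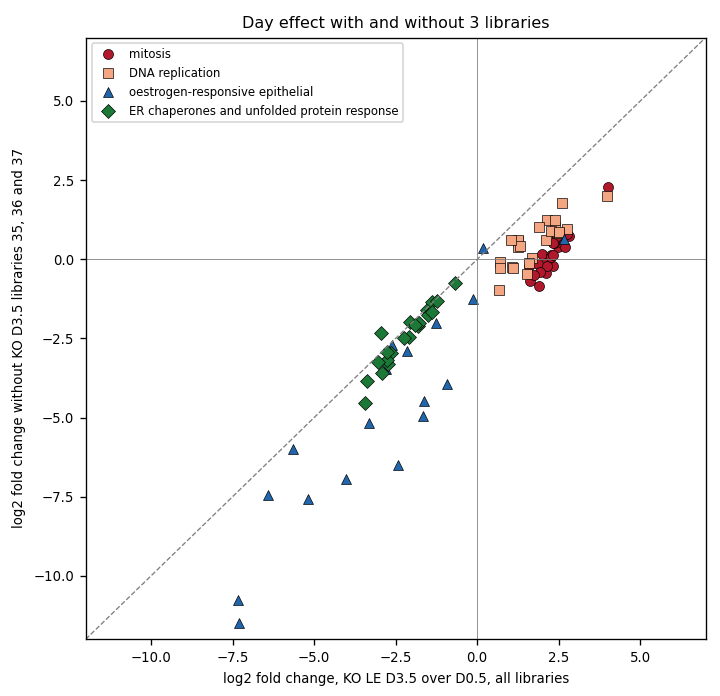
Log2 fold change of KO LE D3.5 over D0.5 with all libraries (horizontal axis) and without KO D3.5 libraries 35, 36 and 37 (vertical axis) for the tested members of 4 gene lists, 1 point a gene. The dashed line marks equal values; chaperone genes lie along it, mitosis genes drop to a median of 0.14 and oestrogen-responsive genes to a median of −4.95.

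The promoters of Cdk1 and Ccnb2 are given because both genes followed the 3 libraries; capitals mark CCAAT boxes on either strand, a motif that is also part of the stress element above. The 250 bases before the start lie at chr10:69352913-69353162 (minus strand) for Cdk1 and chr9:70421555-70421804 (minus strand) for Ccnb2. The box was found in 18 of 21 windows of the mitosis list (85.7%), against 34.8% of 15510 windows, and the letters TTTGAA of the cell cycle homology region in 8 of 21 (38.1%), against 11.9%.
Cdk1: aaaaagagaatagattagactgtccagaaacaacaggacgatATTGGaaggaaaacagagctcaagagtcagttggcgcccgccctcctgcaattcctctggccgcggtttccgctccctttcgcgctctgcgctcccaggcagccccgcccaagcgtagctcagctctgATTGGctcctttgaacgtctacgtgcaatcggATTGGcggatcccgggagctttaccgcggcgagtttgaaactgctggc
Ccnb2: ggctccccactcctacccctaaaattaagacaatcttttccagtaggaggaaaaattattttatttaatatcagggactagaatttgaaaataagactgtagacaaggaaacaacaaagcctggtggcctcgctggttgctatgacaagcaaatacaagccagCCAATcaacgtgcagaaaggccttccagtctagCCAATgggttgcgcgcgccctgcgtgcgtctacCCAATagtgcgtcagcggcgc
Both genes stood highest at D3.5 in library 36.

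Inhibitors of the cell cycle moved both ways, 4 of 12 higher and 3 lower (21.4% and 20.2% of all genes). Cdkn1c, the inhibitor p57, rose 3.79-fold to 18.1, 35.0 and 69.5 CPM, against 6.30, 11.1 and 14.2 CPM, without overlap. Rbl2, a retinoblastoma-like protein, rose 2.26-fold, also without overlap. Gadd45a, a growth arrest gene, fell 9.97-fold. Cdkn2c was higher by a log2 fold change of 1.50 ± 0.38 with all libraries and did not pass without the 3 (0.47 ± 0.40, adjusted p = 0.4, edgeR).

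Krt15 and Krt5, keratins of stratified epithelium, were high in the same 3 libraries. Krt15 was at 212, 196 and 101 CPM in libraries 31, 32 and 34 and at 1966, 2593 and 1209 CPM in libraries 35, 36 and 37, against 0.209, 8.15 and 79.3 CPM at D0.5. Its call was lost without the 3 (log2 fold changes 5.49 ± 1.31 and 2.84 ± 1.29, adjusted p = 0.00139 and 0.0925, edgeR). Krt5, a keratin of basal cells, was at 28.7, 22.8 and 21.6 CPM and at 457, 576 and 204 CPM, against 0.907, 18.2 and 156 CPM at D0.5, and did not pass (adjusted p = 0.341, edgeR; 0.0153 in limma voom). Krt4 had no count at D0.5 and 0.170, 1.38 and 9.32 CPM at D3.5, at least 168-fold higher against 3 counts over the group. Sprr1a, a cornified envelope protein, was at 3.52, 3.43 and 1.37 CPM and at 90.9, 103 and 65.7 CPM, against 140.4, 214 and 485 CPM at D0.5, so that it was lower in all 6. Krt10 ran the other way among the D3.5 libraries, at 13.1, 14.8 and 30.5 CPM against 8.88, 3.71 and 11.7 CPM. Of 10 tested markers 3 were higher, Krt4, Krt10 and Krt15, and 2 lower, Sprr1a and the keratin Krt14 (21.4% and 20.2% of all genes). Krt14 had a log2 fold change of −3.06 with all libraries and −4.85 without the 3. With limma voom 6 were higher, without the 3 libraries 2 were, and without any 1 of libraries 31, 32, 34, 35 or 37 or D0.5 libraries 21 or 25, 1 was lower. The summed level of the list was 165 to 3376 CPM at D3.5 and 161 to 763 CPM at D0.5. Cells of stratified epithelium were not identified here. The part of any such cells, and of the lower mitochondrial share of libraries 35, 36 and 37, in the replication, mitosis and oestrogen-responsive results was not tested.

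For most cholesterol synthesis genes the day effect was higher in KO than in control LE. Of 22 tested genes 4 were higher and 7 lower in KO LE (21.4% and 20.2% of all genes). This split turned to 5 higher and 2 lower on log2(TPM + 1), where 77.8% of all calls were higher. Without libraries 35, 36 and 37 it was 3 and 12 in edgeR (15.1% and 19% of all genes). In control LE 2 were higher and 20 lower, with medians of −0.51 in KO and −2.64 in control LE, and the day effect was higher in KO for 16 of 22 and lower for none; without the 3 libraries it was higher for 7. Mvd, of the mevalonate pathway, fell to 3.48, 6.85 and 11.7 CPM at D3.5, against 45.8, 77.9 and 150.5 CPM at D0.5, 12.9-fold lower, while Pmvk, the enzyme before it, rose 4.51-fold. Both held without overlap. Insig1, a regulator of sterol synthesis, fell 2.68-fold, and Tm7sf2, a sterol reductase, rose 2.46-fold.

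Transport, junction and signalling genes changed one by one, where 21.4% of all genes were higher and 20.2% lower. Aqp11, an intracellular aquaporin, was at 60.1, 132 and 264 CPM at D3.5, against 0.422, 1.14 and 1.60 CPM at D0.5, 122-fold higher (6.93 ± 0.38, adjusted p = 7.6e-13, edgeR). Slc26a4, the anion exchanger pendrin, held 45 counts in all 6 D3.5 libraries, at a mean of 0.397 ± 0.831 CPM, against 483 ± 246 CPM at D0.5. Slc4a4, a bicarbonate transporter, fell 9.64-fold, and Sgk1, a kinase that regulates sodium channels, rose 6.95-fold. In all, 7 of 24 water and ion transport genes were higher and 9 lower. Of 20 junction genes 6 were higher and 6 lower, with plakoglobin (Jup) 1.90-fold higher and Tjp3, a tight junction scaffold, 2.74-fold lower. On log2(TPM + 1), where 77.8% of all calls were higher, this split was 7 higher and 3 lower. Of 15 prostaglandin genes 5 were higher and 3 lower. Pla2g4a, which frees arachidonic acid, rose 3.32-fold without overlap, and Ptgs2, the inducible cyclooxygenase, was at 2.90, 11.4 and 23.1 CPM at D3.5, against 179, 560.4 and 1787 CPM at D0.5, 58.9-fold lower. Of 17 matrix protease genes 3 were higher and 4 lower, with matrilysin (Mmp7) 114-fold and Plat, tissue plasminogen activator, 3.02-fold lower.

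Of 21 tested Wnt pathway genes, which include ligands, receptors, targets and antagonists, 12 were higher and 1 lower (21.4% and 20.2% of all genes). The median log2 fold change was 1.24. Without the 3 libraries 7 were higher and 2 lower (15.1% and 19% of all genes). Wnt11, a ligand, was at 40.3, 101 and 140.5 CPM at D3.5, against 0.209, 3.08 and 9.93 CPM at D0.5, 23.5-fold higher. Wnt5a, another ligand, rose 3.82-fold, its receptor family member Fzd6 5.01-fold and Znrf3, which removes Wnt receptors from the surface, 2.71-fold, all without overlap. Wnt7b was the member that fell, 2.74-fold. In the epidermal growth factor family Areg rose and Erbb4, a receptor, and Lrig1, an inhibitor of these receptors, fell 22.0-fold and 2.55-fold. Among 16 retinoic acid genes 4 were higher and 3 lower (21.4% and 20.2% of all genes). Without the 3 libraries 2 were higher, Cyp26a1, which breaks down retinoic acid, and Rarg. With all libraries the receptor Rarg was 2.23-fold higher and Rara 3.15-fold lower. Crabp2, which binds retinoic acid, was at 1.74, 2.21 and 1.07 CPM in libraries 31, 32 and 34 and at 21.2, 24.1 and 13.0 CPM in libraries 35, 36 and 37, against 0.519, 1.19 and 2.58 CPM at D0.5, and its call was lost without the 3 (adjusted p = 0.768, edgeR). Its day effect was nonetheless higher in KO than in control LE with and without them (differences 8.38 ± 1.07 and 5.74 ± 0.73). Of the luminal markers, Calb1, a calcium-binding protein, rose 14.7-fold and the growth factor receptor Met fell 5.16-fold. Of the gland markers Sox9, a transcription factor, fell 20.8-fold, and Spink1, a protease inhibitor, and Cxcl15 rose 40.7-fold and 4.12-fold.

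Immediate early genes, which tissue dissociation is known to raise, were lower in 9 of 22 cases and higher in 1 at D3.5 (20.2% and 21.4% of all genes). On log2(TPM + 1), where 77.8% of all calls were higher, 7 were lower and 4 higher. Ier3 was at 12.4, 13.5 and 15.5 CPM at D3.5, against 179, 269.7 and 878 CPM at D0.5, 27.0-fold lower, and Socs3, an inhibitor of cytokine signalling, fell 8.88-fold. Of 13 interferon-stimulated genes 7 were lower and 1 higher (20.2% and 21.4% of all genes), and this count rested on single libraries. It was 4 lower without D0.5 library 21, which held the highest score of the list at 8.45 against 5.87 to 6.78 in the other 6 D0.5 libraries. It was 12 lower without D3.5 library 34 and 3 lower without libraries 35, 36 and 37 (19% of all genes in that last fit). Oas1a, an antiviral enzyme, fell 2.82-fold.

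Over all genes, the day effect in KO LE differed from that in control LE for 2575 genes (16.5%), 1485 higher and 1090 lower in KO; 44% of genes were called between days in control LE itself. Of the 1485, 625 were lower in control LE and not called in KO LE, 323 were lower in both, 328 were higher in KO and not called in control LE, and 137 were higher in KO and lower in control LE. Of the 1090, 360 were higher in control LE and not called in KO LE, 329 were lower in KO and not called in control LE, 212 were higher in both and 70 were lower in KO and higher in control LE. Peg10, an imprinted gene derived from a retrotransposon, had the highest fitted difference after Cuzd1. Peg10 was at 106 ± 123 CPM in KO LE at D3.5 and 6.68 ± 8.45 CPM at D0.5, against 2.76 ± 1.56 and 2169.9 ± 1198 CPM in control LE (difference 13.62 ± 1.46, adjusted p = 4.85e-07, edgeR). Cuzd1, a secretory granule protein, held 5 counts in all KO LE libraries of D3.5 and none at D0.5, and in control LE none at D3.5 and 95.6 ± 48.2 CPM at D0.5 (adjusted p = 0.000319, edgeR). Slc14a1, a urea transporter, averaged 33.7 ± 21.6 and 1.40 ± 1.40 CPM in KO LE, against 2.04 ± 1.59 and 58.5 ± 47.2 CPM in control LE at D3.5 and D0.5. Moxd1 averaged 24.1 ± 25.0 and 3.72 ± 2.39 CPM in KO LE, against 0.0791 ± 0.108 and 5.16 ± 2.32 CPM.

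At the other end, Npl, which breaks down sialic acid, was at 274 ± 98.5 CPM in KO LE at D3.5 and 8.01 ± 7.67 CPM at D0.5, against 825 ± 164 and 0.303 ± 0.196 CPM in control LE (difference −6.37 ± 0.76, adjusted p = 2.2e-06, edgeR). Lgr5, a receptor for R-spondins, rose in control LE to 102 ± 88.2 CPM at D3.5, against 1.65 ± 1.18 CPM at D0.5, and did not pass in KO LE, at 6.53 ± 4.03 CPM against 11.7 ± 6.68 CPM (difference −6.80 ± 0.91, adjusted p = 9.1e-06). Col28a1, a collagen chain, reached 2.84 ± 1.85 CPM at D3.5 in KO LE and 46.4 ± 33.5 CPM in control LE. Nr4a3, an orphan nuclear receptor, fell in KO LE, to 1.57 ± 0.745 CPM at D3.5 against 9.64 ± 3.32 CPM at D0.5, and rose in control LE, to 46.4 ± 34.9 CPM against 2.39 ± 1.89 CPM. Orm1, an acute phase protein, and Antxrl fell in KO LE, to 0.293 ± 0.214 and 0.187 ± 0.160 CPM at D3.5, against 25.9 ± 16.3 and 17.8 ± 9.39 CPM at D0.5, and neither was called in control LE. Mmp8 and Fpr1 had differences of −8.55 ± 1.83 and −7.89 ± 1.62 (adjusted p = 0.00176 and 0.00122, edgeR), fitted sizes that depend on the prior count, since both had 2 counts in KO LE at D3.5.

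Among the genes named for wide spread between KO libraries, Lgi2, Olfm4 and Serpinb11 were highest at D3.5 in libraries 35, 36 and 37. The median SD of log2(CPM + 0.5) over expressed genes was 0.30 at D3.5 and 0.32 at D0.5. Lgi2 was at 1.27, 1.30 and 0.967 CPM in libraries 31, 32 and 34 and at 40.1, 107 and 19.4 CPM in libraries 35, 36 and 37, against 3.70, 13.1 and 33.8 CPM at D0.5. It was not called with all libraries (log2 fold change 0.72 ± 0.76, adjusted p = 0.48, edgeR) and lower without the 3 (−3.88 ± 0.76, adjusted p = 0.000314). Olfm4, an olfactomedin of secretory epithelium, was at 3.90, 0.789 and 0.153 CPM and at 59.6, 88.1 and 6.03 CPM, against 51.1, 233 and 533 CPM at D0.5. Serpinb11, of the serpin family of protease inhibitors, was at 6.49, 1.81 and 0.153 CPM and at 58.3, 132 and 20.1 CPM.

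Whole uterus (U) and dispase-digested uterus (DU) of some of the same mice were scored for the same lists in other RNA samples. The members scored were those that passed the filter in each tissue. The stratified epithelium list, for example, had 8 in U, 9 in DU and 10 in LE. In U at D3.5, the oestrogen-responsive list had a mean log2(CPM + 0.5) of 3.00 in mouse 35 and 2.13 in mouse 37, against 1.89 in mouse 32 and 2.02 in mouse 34. The stratified epithelium list was at 2.95 and 2.09 in mice 35 and 37, against 1.26 and 0.86 in mice 32 and 34, and the mitosis list at 5.31 and 4.62, against 3.73 and 4.43. Mouse 33, which gave U at D3.5 but no LE, held 1.83, −0.24 and 4.76 for the oestrogen-responsive, stratified epithelium and mitosis lists. In DU, mouse 35 held 3.03, 2.53 and 5.10 for these lists, mouse 32 held 1.87, 1.12 and 3.73, and mouse 34 held 1.61, 0.66 and 3.98. Mouse 35 was the highest of these D3.5 mice in all 3 lists in LE, U and DU, except that LE of mouse 36, which has no U or DU library here, was higher still. The chaperone list in U was at 6.29, 6.61, 7.01 and 6.64 in D3.5 mice 32, 34, 35 and 37, against 7.50, 7.35, 7.37 and 7.92 in D0.5 mice 21, 25, 26 and 27, and the neutrophil list at 0.79 to 1.69 against 5.28 to 6.28. These values are a description without a test.

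**Figure D5:**
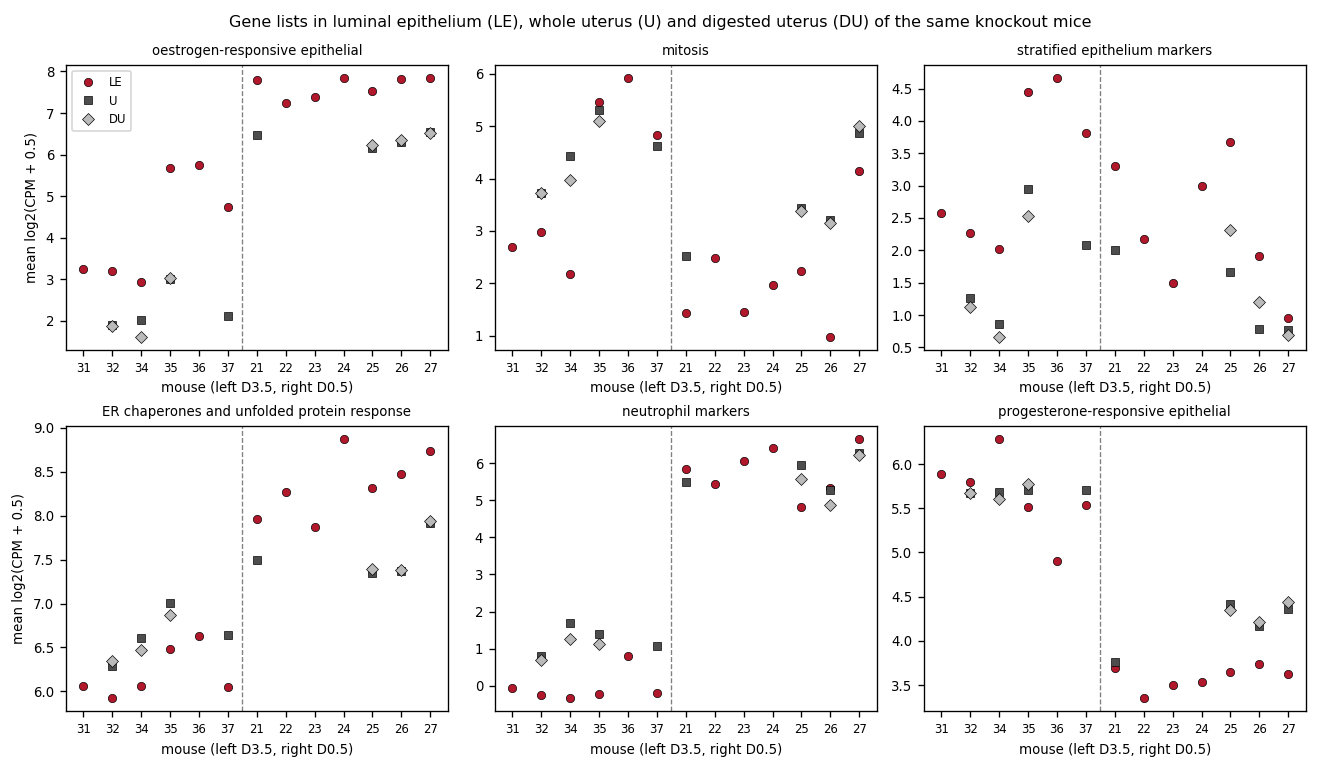
Mean log2(CPM + 0.5) of 6 gene lists in luminal epithelium (LE), whole uterus (U) and dispase-digested uterus (DU) of the knockout mice that gave LE, D3.5 mice left of D0.5 mice. In U the neutrophil list is at 0.79 to 1.69 in the D3.5 mice and 5.28 to 6.28 in the D0.5 mice, and mouse 35 holds the highest U value of the oestrogen-responsive, mitosis and stratified epithelium lists at D3.5.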

How the data were processed

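RNA of each library was sequenced in bulk from a NEBNext Ultra library. The authors deposited estimated counts and TPM per gene, made with kallisto 0.46.1 on GRCm39 per the submitters' processing notes; the annotation and the summing to genes are not given in the sources used here. TPM as deposited by the authors are scaled within each library, sum to less than 1e+06 over the genes of the table, and keep no depth.

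Estimated counts were rounded to whole numbers. All 26 LE libraries, in 4 groups, entered 1 fit in edgeR 4.0.16 (R 4.3.3) with TMM scaling, filterByExpr (minimum count 10) and the quasi-likelihood test, and p-values were adjusted by Benjamini-Hochberg over 15601 genes. The difference of day effects was a contrast in this fit. The SE beside an edgeR log2 fold change is its absolute value divided by the square root of the test's F statistic. It was thus worked back from the test and is unreliable where a group has few counts. The steps were tested on simulated data. Each library is 1 mouse, so p-values measure the spread between mice. Replicate libraries differed by more than sampling noise (lowest chi-square per degree of freedom 28.1 over 36 pairs).

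Alternatives were median-of-ratios scaling, no low-count filter, DESeq2 1.42.0, limma 3.58.1 (voom, and log2(TPM + 1)), fits without some libraries and a 2-fold limit.

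Members and the 34 gene lists (517 genes, 498 tested) were chosen with earlier results of these data known. Genes were named by rule. It took the genes Wnt7a, Pgr and Esr1 in any case; 12 called genes at each end of the fold change with at least 10 CPM and no overlap; up to 4 called members per list by adjusted p; 8 at each end of the difference; and 10 by spread per day. Some of these are not reported here. Hdc, Acod1, Fst, Mki67, Ccnb2, Cdk1, Hspa5, Hsp90b1, Calr, Cxcl1, Wnt7b and Slc2a3 were added after their values were seen. Promoters are the 250 bases before each start from RefSeq (GRCm38.p6), matched by symbol.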

Additional observations from a re-analysis of the deposited data

Results flagged for a closer look

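The following values lay apart from the rest of their group by Dixon's test, which chance meets in about 1 of 20 groups. The test was run on 34 lists and 146 genes in both KO groups, so chance alone would flag many values. Which of the values below are due to chance was not tested. For list means of log2(CPM + 0.5), KO D3.5 library 36 was highest for neutrophil markers at 0.79, KO D3.5 library 34 was lowest for immediate early genes at 4.37, and KO D0.5 library 21 was highest for interferon-stimulated genes at 8.45. For single genes on the same scale, the lowest KO D3.5 library stood apart for Gldc (4.49), Socs3 (2.78) and Npl (6.63). The highest KO D3.5 library stood apart for Cstdc4 (−0.88), Chil1 (3.55), Slc26a4 (1.36), Fpr1 (−0.77), Mmp8 (−0.77), Cldn7 (9.17) and Cuzd1 (−0.51). At D0.5 the highest library stood apart for Gldc (1.09), Cyp2a5 (−0.86), Kif11 (3.6) and Cdk1 (3.88), and the lowest for Lcn2 (12.6) and Arg1 (3.54).

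The day effect differed between KO and control LE, by the contrast of the 2 day effects in edgeR, for 1485 genes higher and 1090 genes lower in KO. On the log2 scale the difference, KO minus control, was 0.93 for Esr1, 2.99 for Muc4, 5.74 for Ltf, 9.52 for Alpl, 3.49 for Rrm2, 3.3 for Kif23, 8.38 for Crabp2, 13.62 for Peg10, 9.44 for Slc14a1 and 8.52 for Moxd1. It was −4.0 for Ihh, −2.94 for Lrp2, −2.33 for Hdc, −3.58 for Acod1, −1.4 for Hspa5, −1.86 for Creld2, −3.55 for Ptprc and −5.2 for Slc2a3. It was −7.89 for Fpr1, −8.55 for Mmp8, −7.23 for Orm1, −6.9 for Nr4a3, −6.8 for Lgr5, −6.67 for Col28a1, −6.59 for Antxrl and −6.37 for Npl. Cuzd1, with groups at 0 counts, had an adjusted p of 0.000319 in edgeR.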

How the results depend on the processing

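On log2(TPM + 1) with limma, 5799 genes were higher and 1657 lower between days in KO LE, and the difference of day effects was higher for 2704 and lower for 685. Without libraries 35, 36 and 37 the day effect was higher in KO for 986 genes. With a 2-fold limit 3846 genes were called between days, 1923 higher and 1923 lower. Leaving out each of the 26 libraries in turn gave 5997 to 6625 calls between days, 3029 to 3400 higher and 2877 to 3244 lower, and 2275 to 2769 calls for the difference, 1317 to 1595 higher and 958 to 1211 lower. The log2 fold change changed sign without libraries 35, 36 and 37 for Kif23 (−0.16), Ccnb2 (−0.20), Cdk1 (−0.06), Krt5 (−1.22) and Lgi2 (−3.88). Lgi2 was also −0.70 with limma voom, and it ranged from −0.45 without library 36 to 0.97 without library 31 when 1 library was left out. The cause was not tested. No paired analysis was possible because no mouse number is shared between the days. Fold changes of genes with few counts on 1 day are limited by depth.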
